A study of Homo sapiens with 6 samples.

Results

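KHOS and U-2OS, human osteosarcoma cell lines that are often used side by side, were compared over all the transfections of the series. The comparison took the 3 KHOS arrays against the 3 U-2OS arrays, which are all 6 arrays of the series, and paired them by transfection. Each line was profiled as untransfected cells, as cells that had received nonspecific siRNA at 40 nM, and as cells that had received siRNA against CDK11 at 40 nM. CDK11 is a cyclin-dependent kinase with roles in transcription and RNA splicing, and its knockdown was the purpose of the study. Each array held RNA combined from 3 flasks, and each line with a given transfection was measured once. The arrays of a line are thus cultures of 1 stock under 3 treatments. The p-values set the line difference against its unevenness over the 3 transfection pairs, with the variance steadied by that of other genes. The spread between cultures of the same line and transfection was not measured. U-2OS came from a cell bank and KHOS from another laboratory, and line, source and culture history cannot be told apart.

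Osteosarcoma is a bone tumour of mesenchymal cells that lay down bone matrix, and its cells can keep features of osteoblasts, the bone-forming cells, to differing degrees. U-2OS is widely used as a model of cells that keep functional p53 and lengthen their telomeres without telomerase. Lines named KHOS descend from HOS cells that were transformed with the Kirsten sarcoma virus, which carries an activated Ras gene, though the labels do not state the subline. The interferon pathway, which recurs in the results, is an antiviral program in which sensors of foreign nucleic acids lead to secreted interferons, and these switch on a common set of target genes.

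Values were gcrma log2 signals, in which 1 unit is a doubling of signal, and a difference is always KHOS minus U-2OS, averaged over the 3 pairs and followed by its standard error from limma. A gene was tested when its probe set exceeded a log2 value of 6.64 (a signal of 100) on at least 1 array, which left 8878 genes with 1 probe set each. The medians over all 54675 probe sets lay between 2.92 and 2.98 on the 6 arrays, and the share of probe sets above the limit lay between 24.8% and 25.9%. Over the kept probe sets, the arrays of a line correlated with r of 0.974 to 0.989, and arrays of different lines with r of 0.689 to 0.714. The kept probe sets had a median 0.15 higher in KHOS than in U-2OS, and smaller differences of single genes carry no direction of their own. As a yardstick for unexpressed genes, 68 probe sets of 29 genes of blood, endothelium and other tissues were used. KRT10, the listed gene of these groups that passed the signal limit, was left out of this yardstick. The 68 probe sets stayed below 4 on every array, with a median of 2.38, and a level below 4 is called near background here. Where a gene was near background in 1 line, the size of its difference was set partly by that background, and no fold was given.

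Most genes differed between the lines. At an adjusted p under 0.05 in limma, 6362 of 8878 genes were called, a share of 71.7%, with 3403 higher in KHOS (38.3%) and 2959 higher in U-2OS (33.3%). The counts within gene groups are to be read against these shares. The same fit was also used to test whether a difference exceeded 1 log2 unit, that is, a doubling. Within gene groups, counts beyond 1 log2 unit are of genes that passed this test. By this stricter test 2076 genes were called, a share of 23.4%, with 1157 higher in KHOS (13.0%) and 919 higher in U-2OS (10.4%). On KHOS arrays alone 848 genes passed the signal limit, and 755 on U-2OS arrays alone, so that these were kept through the line with the higher level. Counts and medians of gene groups that hold such genes are a description, also where this is not repeated for the group. The differences ran from -11.77 to 10.77 with quartiles of -0.62 and 0.78, and 559 genes differed by more than 4 log2 units. The arrays of the lines did not overlap for 73.9% of the genes (39.5% higher in KHOS and 34.4% higher in U-2OS), and 29.2% differed by more than 1 log2 unit the same way in every pair. Over the pairs, 7581 genes had the same sign in all 3, and no gene differed by more than 1 log2 unit in opposite directions in 2 pairs. The median gene differed by 0.70 between the lines without regard to sign, while the transfections within a line differed by 0.15 to 0.25. On the plot of levels in the lines, the called genes formed flat bands near background, where a gene was measured in 1 line and hardly at all in the other.

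**Figure D1:**
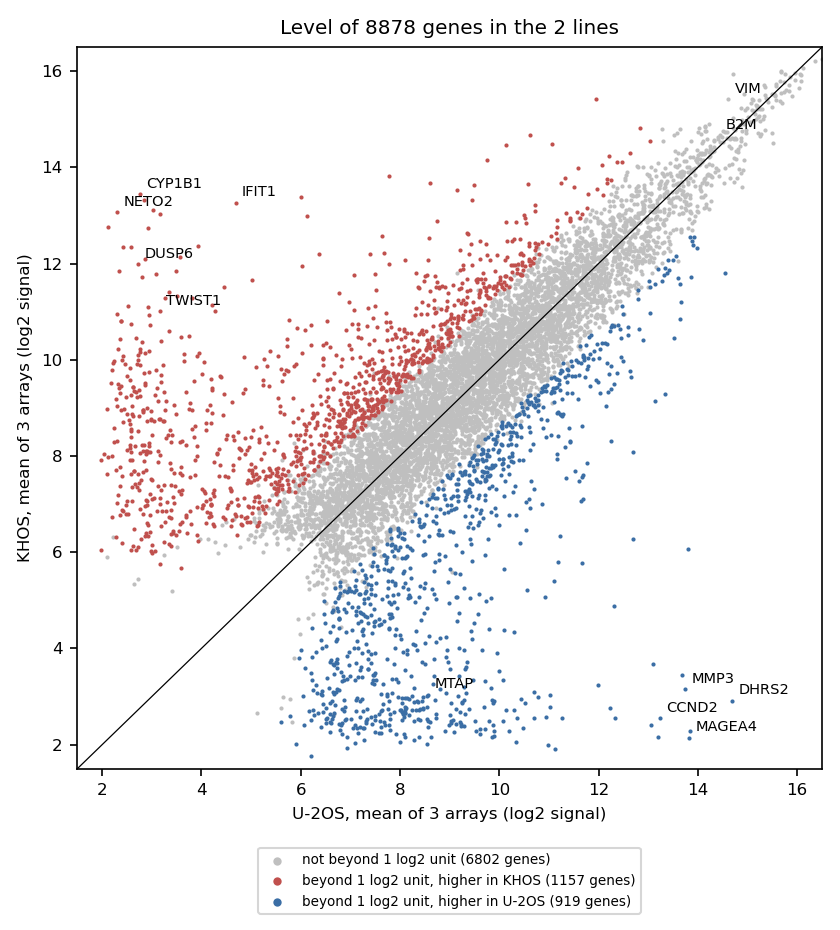
Mean log2 signal of each of the 8878 genes over the 3 KHOS arrays (vertical) and the 3 U-2OS arrays (horizontal), with genes past the test beyond 1 log2 unit in colour and the line of equal level drawn. The 1157 red genes were higher in KHOS and the 919 blue genes in U-2OS, and both colours reach the band near background.

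The labels were first set against defining markers of the cells. Vimentin, the intermediate filament of mesenchymal cells (VIM), was among the brightest genes of both lines, at 15.36, 15.48 and 15.39 (KHOS) against 14.68, 14.52 and 14.63 (U-2OS). None of the 13 measured markers of blood and endothelium reached the signal limit on any array, and PTPRC, the surface antigen of all leukocytes, peaked at 2.997 in KHOS and 2.98 in U-2OS. Among genes of other tissues, KRT10, a keratin of the epidermis, was the 1 gene tested, with a difference of -0.31 ± 0.11 that did not pass once any transfection was left out (adjusted p = 0.0513, 0.233 and 0.133). Since RNA of whole cultures was measured, fewer cells with a transcript and less of it per cell cannot be told apart. Of 23 genes of the osteoblast lineage, 16 stayed below the limit in both lines. SP7, a transcription factor of committed osteoblasts, had its highest value at 2.22 in KHOS and 2.21 in U-2OS, and ALPL, the alkaline phosphatase of bone, at 2.98 in KHOS and 3.001 in U-2OS. COL1A2 and IBSP, a bone matrix collagen and sialoprotein, were near background as well. SPP1, the matrix protein osteopontin, reached 5.52 in KHOS and 6.62 in U-2OS.

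Among 5 osteoblast genes tested, 1 was higher in KHOS, 3 were higher in U-2OS and 1 did not pass, with a median of -0.65, and beyond 1 log2 unit 1 was higher in KHOS and 1 in U-2OS. RUNX2, the factor that starts osteoblast differentiation, had levels of 9.51, 9.60 and 10.24 (KHOS) against 7.03, 4.39 and 5.68 (U-2OS). All KHOS arrays were above all U-2OS arrays, although the U-2OS values were spread widely, and the difference was 4.08 ± 0.54 (adjusted p = 0.00214). The other called members went the other way. BMP2, a secreted inducer of bone formation, was measured at 3.33, 3.52 and 4.89 (KHOS) against 6.68, 7.87 and 7.94 (U-2OS), a difference of -3.58 ± 0.27. COL1A1, the main collagen of bone, differed by -0.87 ± 0.20 and SPARC, a matrix glycoprotein of bone, by -0.65 ± 0.18. Both were lower in KHOS by the brightest probe set, and neither passed the test beyond 1 log2 unit. The 3 kept probe sets of COL1A1 ran from -0.87 to -0.06, so its size depends on the probe set. SPARC no longer passed without the pair with nonspecific siRNA (adjusted p = 0.0707). The median of the list turned to 0.04 when genes were kept by their mean over the 6 arrays.

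The genes with the largest differences were high in 1 line and at or close to background in the other. The 15 largest differences towards KHOS ran from 8.65 to 10.77, and in each of these genes all U-2OS arrays were near background. NETO2, an auxiliary subunit of kainate receptors, stood at 12.93, 13.03 and 13.25 (KHOS) against 2.37, 2.27 and 2.26 (U-2OS), and its difference was 10.77 ± 0.12 (adjusted p = 5.94e-06). CYP1B1, a cytochrome P450 enzyme, had 12.27, 13.81 and 14.24 (KHOS) against 2.84, 2.67 and 2.77 (U-2OS). The untransfected KHOS array was the lowest of the KHOS arrays for CYP1B1, but no array of the lines overlapped. UCHL1, a deubiquitinating enzyme of neurons and neuroendocrine cells, differed by 10.64 ± 0.15. GREM1, a secreted antagonist of bone morphogenetic proteins, and DKK1, a secreted antagonist of Wnt signalling, are both extracellular inhibitors. GREM1 was at 13.01, 13.35 and 13.57 (KHOS) against 2.79, 2.93 and 2.83 (U-2OS). DKK1 was at 12.95, 12.02 and 12.04 (KHOS) against 2.36, 2.41 and 2.50 (U-2OS), with the highest KHOS value in untransfected cells. NT5E, the surface 5′-nucleotidase CD73 that marks mesenchymal stromal cells, differed by 9.86 ± 0.11, and all 4 of its kept probe sets were higher in KHOS. ANPEP, the surface aminopeptidase CD13, was 9.23 higher. The others were CLDN11 (a tight junction claudin), SRGN (the proteoglycan serglycin), PRSS23 (a serine protease), FMNL2 (an actin-assembling formin), QPCT (glutaminyl cyclase), LPAR3 (a lysophosphatidic acid receptor), DUSP6 and IFITM1, at 8.65 to 10.08.

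Towards U-2OS the 15 largest differences ran from -11.77 to -8.70. DHRS2, a short-chain dehydrogenase, had the largest difference of all genes tested, with 2.09, 2.29 and 4.37 (KHOS) against 14.73, 14.69 and 14.65 (U-2OS). The KHOS array with CDK11 siRNA was the highest of the KHOS arrays, and the mean difference was -11.77 ± 0.49 (adjusted p = 6.77e-05). CCND2, a D-type cyclin that drives entry into the cell cycle, was at 2.52, 2.44 and 2.70 (KHOS) against 13.17, 13.24 and 13.31 (U-2OS), with no overlap and hardly any spread within a line. MMP3, the matrix protease stromelysin-1, was at 3.09, 3.19 and 3.20 (KHOS) against 12.83, 14.24 and 14.16 (U-2OS), and CRYAB, a small heat shock protein, differed by -10.23 ± 0.18. IL18, an inflammatory cytokine, was at 3.58, 2.86 and 3.29 (KHOS) against 12.44, 11.73 and 11.77 (U-2OS). LAMA1, a laminin chain of embryonic basement membranes, differed by -8.99 ± 0.20. NEFL, the light neurofilament chain of neurons, differed by -8.70 ± 0.10, and all 3 of its kept probe sets were lower in KHOS. SUN3 and BEX1 differed by -9.46 ± 0.14 and -9.41 ± 0.38, and the long noncoding RNA LINC00520 by -9.21 ± 0.41. The remaining 5 were the MAGE genes MAGEA4, MAGEA6, MAGEA12, MAGEA1 and MAGEB2, which are taken up with the cancer-testis antigens.

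**Figure D2:**
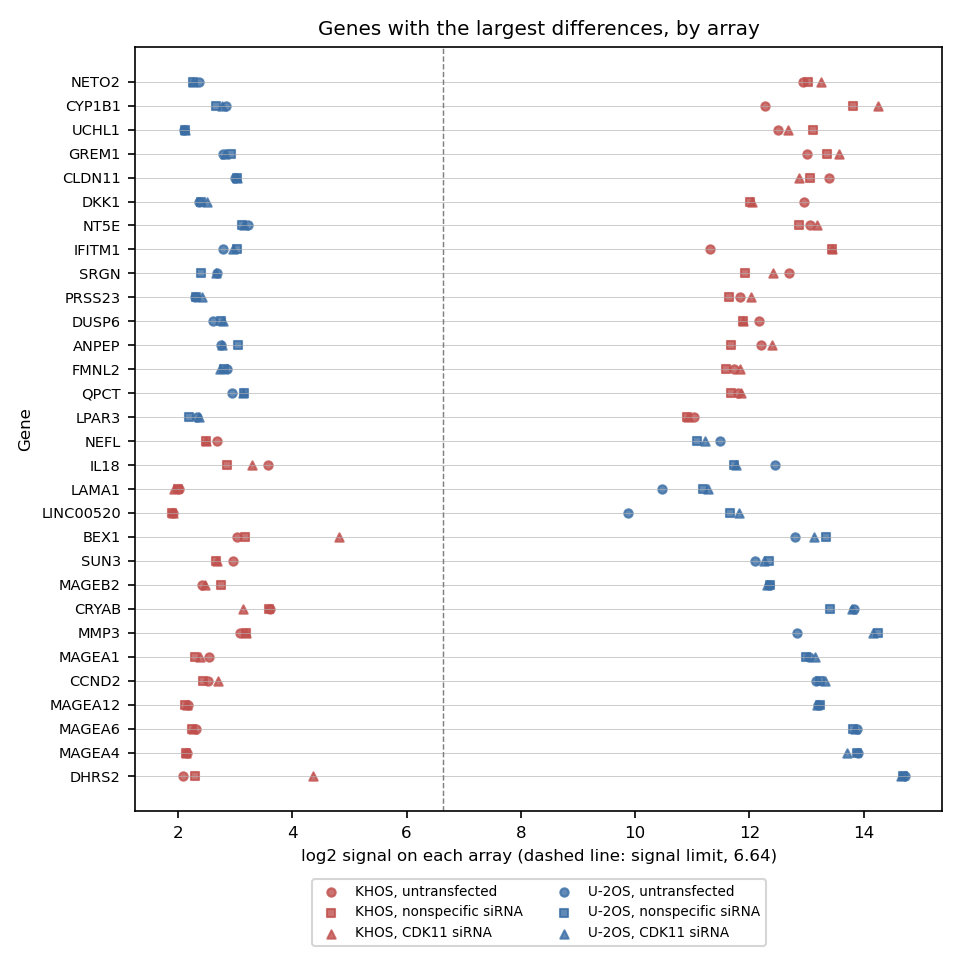
Log2 signal on each of the 6 arrays (horizontal) of the 15 genes with the largest differences towards KHOS and the 15 towards U-2OS (vertical), with the line in colour and the transfection as the symbol. The arrays of the lines lie on opposite sides of the signal limit of 6.64 for every gene shown, and the symbols of a line mostly overlap.

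Of the 37 gene lists with a gene tested, the interferon-stimulated genes had the largest median difference towards KHOS. Of 35 members, 33 were tested, and 32 of these were higher in KHOS, none was higher in U-2OS, and 1 did not pass. By the test beyond 1 log2 unit, 32 of 33 were higher in KHOS. The median difference was 5.29, against 0.07 over all genes tested, and the single genes ran from 1.05 to 9.80. Since 23 of the 33 passed the signal limit on KHOS arrays alone and were so kept through the line with the higher level, the counts and the median are a description. IFIT1, which binds foreign RNA and blocks its translation, was at 12.07, 13.90 and 13.83 (KHOS) against 4.73, 4.68 and 4.66 (U-2OS), a difference of 8.58 ± 0.41 (adjusted p = 9.83e-05). IFITM1, a membrane protein that blocks virus entry, was at 11.31, 13.44 and 13.45 (KHOS) against 2.79, 3.03 and 2.96 (U-2OS). IFI44L, a marker of the interferon response, was at 10.36, 12.68 and 12.52 (KHOS) against 3.12, 3.47 and 3.87 (U-2OS), and MX1, a dynamin-like antiviral GTPase, differed by 8.06 ± 0.56. For all 4 genes the lowest KHOS array was the untransfected one, and it was still far above every U-2OS array. ISG15, the ubiquitin-like modifier, was measured clearly in both lines, with 13.81, 15.001 and 14.59 (KHOS) against 10.08, 10.14 and 10.21 (U-2OS), and was 20.0-fold higher in KHOS. BST2, which tethers budding viruses, was the member that did not pass, at 5.93, 7.95 and 7.75 (KHOS) against 6.17, 5.92 and 6.37 (U-2OS) (difference 1.05 ± 0.45, adjusted p = 0.0885).

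In the interferon-stimulated genes the 3 pairs also differed from each other. The median difference between the lines was 4.31, 5.81 and 5.85 in the untransfected, the nonspecific siRNA and the CDK11 siRNA pair. Within KHOS, all 33 genes were higher with nonspecific siRNA than in untransfected cells, by a median of 1.76 and a range of 0.85 to 3.52, while the median step over all genes was 0.01. With CDK11 siRNA the median step in KHOS was 1.82, again above 0 in all 33 genes. In U-2OS the corresponding medians were 0.02 and 0.14, with 18 and 25 of 33 genes above 0. These steps each compare 1 array with 1 array and have no replicate check. In untransfected cells alone, 26 of 33 genes had a level of at least 8 in KHOS and 6 in U-2OS, so the lines stood apart also in cells that had received no siRNA. The map of these genes by array shows the same order.

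**Figure D3:**
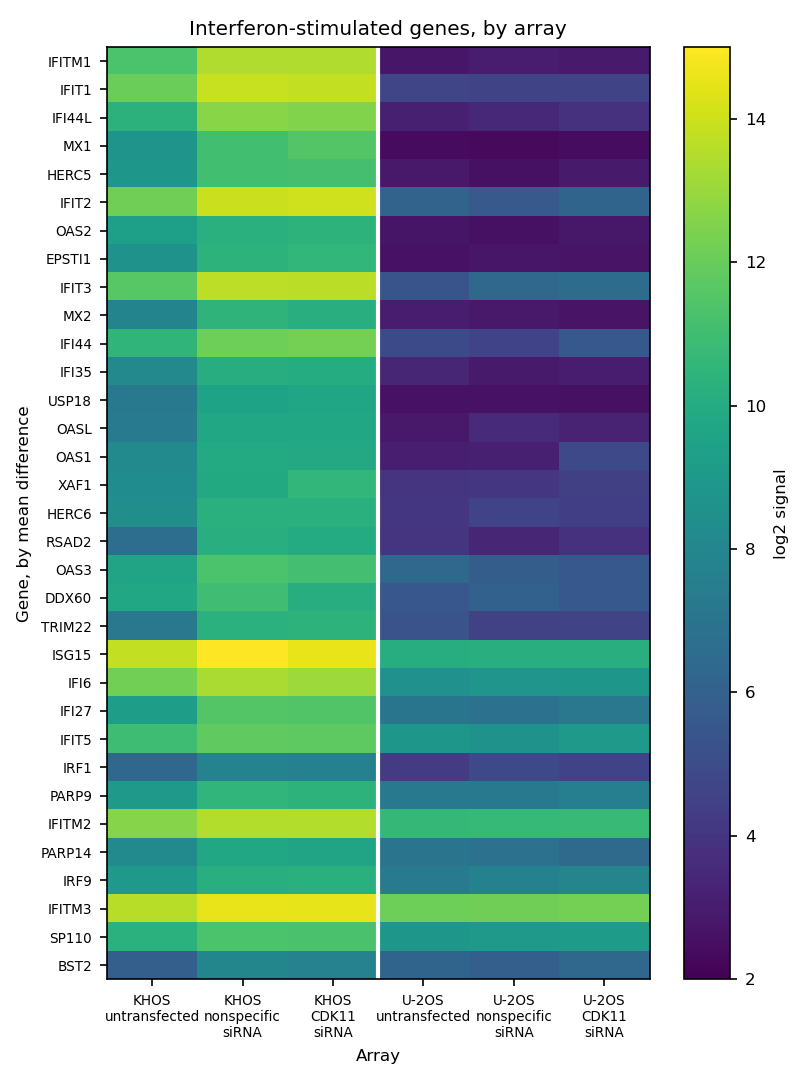
Log2 signal (colour) of the 33 interferon-stimulated genes tested (rows, by mean difference) on the 6 arrays (columns). The 3 KHOS columns are brighter than the 3 U-2OS columns in nearly every row, BST2 being the exception, and the untransfected KHOS column is dimmer than the other KHOS columns.

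Interferon acts on its target genes through a short promoter element bound by factors of the STAT and IRF families. Its core, GAAANNGAAA, was searched on both strands, with overlaps counted, in RefSeq promoters of assembly GRCh38.p14, each from 250 bases before to 50 bases after a gene's start. It was found in 17 of the 26 interferon-stimulated genes with a promoter in the table (65.4%), in 2.84% of the 7398 promoters of all genes tested, and in 3.65% of all 27305 promoters. Outside the interferon list, 8 of 199 promoters of genes more than 4 log2 units higher in KHOS held it, and 4 of 191 promoters of genes more than 4 log2 units higher in U-2OS. A match is a description of these letters and no evidence that a factor binds there. The 150 bases before the start are given for the 4 members with the largest differences whose stretch held the core, since they show the element that the list shares beside its levels, with the matches in capitals.
IFITM1, chr11:313890-314039, plus strand: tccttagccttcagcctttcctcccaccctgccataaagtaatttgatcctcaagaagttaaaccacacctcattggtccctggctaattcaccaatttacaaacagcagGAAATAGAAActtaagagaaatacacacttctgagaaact
IFIT1, chr10:89392473-89392622, plus strand: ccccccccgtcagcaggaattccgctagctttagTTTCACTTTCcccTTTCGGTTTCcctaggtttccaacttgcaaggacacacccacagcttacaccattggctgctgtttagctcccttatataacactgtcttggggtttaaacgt
IFI44L, chr1:78620298-78620447, plus strand: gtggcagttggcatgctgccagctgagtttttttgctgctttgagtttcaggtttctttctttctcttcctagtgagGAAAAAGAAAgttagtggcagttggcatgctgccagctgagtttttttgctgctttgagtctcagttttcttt
HERC5, chr4:88456969-88457118, plus strand: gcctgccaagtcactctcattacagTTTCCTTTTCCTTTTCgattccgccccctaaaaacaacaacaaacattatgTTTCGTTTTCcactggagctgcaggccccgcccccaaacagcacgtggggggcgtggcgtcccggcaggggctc

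In IFIT1 a pair of cores lay close together, from -116 on, and in HERC5, an ubiquitin ligase for ISG15, overlapping cores began at -125 with a further core nearer the start. IFITM1 and IFI44L each had 1 core in this stretch, from -40 and -73. HERC5 itself was at 8.87, 11.08 and 11.17 (KHOS) against 2.90, 2.56 and 2.93 (U-2OS), with every U-2OS array near background.

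The list of nucleic acid sensing, which holds sensors and related factors, also leaned towards KHOS, with a smaller median than that of the interferon-stimulated genes. Of 11 genes tested, 8 were higher in KHOS, none was higher in U-2OS and 3 did not pass, and 6 went beyond 1 log2 unit, with a median of 1.48. IRF7, the transcription factor that amplifies interferon production, was at 8.52, 9.66 and 9.53 (KHOS) against 2.60, 3.07 and 2.62 (U-2OS). RIGI, a cytoplasmic sensor of RNA, was at 9.08, 10.80 and 10.66 (KHOS) against 7.12, 7.43 and 8.18 (U-2OS), a difference of 2.60 ± 0.28. IFIH1, a related RNA sensor, was at 8.85, 10.82 and 10.39 (KHOS) against 6.99, 6.92 and 6.59 (U-2OS), a difference of 3.19 ± 0.44. In both genes the KHOS arrays with siRNA were higher than the untransfected KHOS array. SAMHD1, a phosphohydrolase that depletes nucleotides, differed by 3.52 ± 0.21, and all 5 of its kept probe sets were higher in KHOS. CGAS, the cytoplasmic DNA sensor, had a difference of -0.12 ± 0.16 (adjusted p = 0.52), and the arrays of the lines overlapped. STING1, the adapter that acts after CGAS, peaked at 3.15 in KHOS and 3.14 in U-2OS, near background in both lines.

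Antigen presentation by MHC class I, which interferon can raise in many cells, did not move as 1 group. Of 17 genes tested, 8 were higher in KHOS, 6 were higher in U-2OS and 3 did not pass, the median was 0.41, and 1 gene passed the test beyond 1 log2 unit. That gene was ERAP1, a peptidase that trims antigens, with 10.11, 10.62 and 10.57 (KHOS) against 5.96, 5.65 and 5.55 (U-2OS). ERAP2, its relative, was at 5.51, 5.82 and 6.66 (KHOS) against 4.56, 4.83 and 3.62 (U-2OS), just above the limit on 1 array and below it on the others. Its difference of 1.65 ± 0.46 fell to 0.96 without the CDK11 siRNA pair and did not pass with no filter (adjusted p = 0.124). HLA-B, a class I heavy chain, was at 9.76, 11.15 and 11.22 (KHOS) against 12.22, 12.35 and 12.33 (U-2OS), 3.01-fold higher in U-2OS, and the gap was widest in untransfected cells. HLA-C showed the same order, with a difference of -1.37 ± 0.27 that did not pass with no filter (adjusted p = 0.0548). B2M, the shared light chain, was at 14.28, 14.81 and 14.93 (KHOS) against 14.38, 14.47 and 14.48 (U-2OS) and did not pass (adjusted p = 0.19), except without the untransfected pair (difference 0.40, adjusted p = 0.0428). Class I heavy chains are closely related and share probes in part, so the split between them is uncertain.

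Cancer-testis antigens, genes of the male germ line that are silent in most other tissues and reappear in tumours, were the list with the largest median towards U-2OS. Of the listed genes with a probe set, 12 did not reach the signal limit on any array and 11 were tested. Of these 11, 10 passed the limit on U-2OS arrays alone and so were kept through the line with the higher level, and the count and the median are therefore given as a description: all 11 were higher in U-2OS, also by the test beyond 1 log2 unit, and the median was -7.70. MAGEA4 was at 2.15, 2.14 and 2.14 (KHOS) against 13.90, 13.87 and 13.71 (U-2OS), a difference of -11.68 ± 0.10 (adjusted p = 5.62e-06). MAGEA6 was at 2.32, 2.25 and 2.26 (KHOS) against 13.88, 13.81 and 13.84 (U-2OS), and MAGEA12 and MAGEA1 differed by -11.05 ± 0.09 and -10.65 ± 0.10. MAGEB2, from another branch of the family, was at 2.42, 2.76 and 2.48 (KHOS) against 12.35, 12.36 and 12.30 (U-2OS). Every KHOS array was near background for all of these and no U-2OS array was. The exception in level was PRAME, an antigen found in melanoma and other tumours, which was high in both lines, at 9.99, 10.15 and 9.64 (KHOS) against 11.46, 11.36 and 11.03 (U-2OS), and 2.56-fold higher in U-2OS. The probe sets of MAGEA1, MAGEA6 and MAGEA12 belong to a class that can match several members of a family, so which of these members was measured is uncertain, while those of MAGEA4, MAGEA8, MAGEA11 and MAGEB2 are not of that class.

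Genes present in 1 line only were also counted over the whole table, as a description without a test. On in a line meant a level of at least 8 on its 3 arrays, with all 3 arrays of the other line near background. By this rule 116 of the 8878 genes tested were on in KHOS only and 105 in U-2OS only. Those of KHOS held 7 of the 33 interferon-stimulated genes tested, 4 of 28 of the RAS-ERK list and 3 of 16 of the IGF axis. Those of U-2OS held 7 of the 11 cancer-testis antigens tested. On the X chromosome lay 13 of the genes on in U-2OS only and 1 of those on in KHOS only, out of 289 genes tested on that chromosome, and 7 of the 13 were the cancer-testis antigens just counted. The CG dinucleotides in a promoter, the sites of DNA methylation, were counted in the same 300-base promoters. The median was 27 per promoter for the genes on in KHOS only (92 promoters), 19 for those on in U-2OS only (71 promoters) and 27 over all genes tested (7398 promoters). Promoters with fewer than 15 such sites made up 19.6%, 33.8% and 13.6%, respectively. Methylation itself was not measured.

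Genes that respond to the RAS-ERK pathway were next examined, because this pathway carries growth signals from receptors at the cell surface to the nucleus and its output includes its own inhibitors. Of 28 genes tested, 16 were higher in KHOS, 4 were higher in U-2OS and 8 did not pass, with 10 and 2 beyond 1 log2 unit. The median was 0.82. Since 6 of the 28 passed the signal limit on KHOS arrays alone and 1 on U-2OS arrays alone, these counts and the median are a description. DUSP6, a phosphatase that inactivates ERK, was at 12.17, 11.89 and 11.88 (KHOS) against 2.62, 2.75 and 2.79 (U-2OS), a difference of 9.26 ± 0.13. DUSP4, a related phosphatase, was at 10.93, 11.04 and 10.45 (KHOS) against 2.51, 2.35 and 2.30 (U-2OS), and SPRY4, an inhibitor of receptor signalling, differed by 6.90 ± 0.11. ETV1, an ETS transcription factor downstream of ERK, was at 10.32, 10.14 and 10.96 (KHOS) against 3.23, 3.61 and 3.94 (U-2OS). For these 4 genes every U-2OS array was near background and no KHOS array was below 9. Not all members followed, and TGFA, a ligand of the EGF receptor, was at 2.47, 2.16 and 2.63 (KHOS) against 7.97, 7.48 and 7.87 (U-2OS). JUN, FOS and JUNB, immediate-early factors of the AP-1 family, had differences of 0.12, 1.04 and 0.58 and did not pass.

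Receptor tyrosine kinases and their ligands went in both directions. Of 14 genes tested, 7 were higher in KHOS, 5 were higher in U-2OS and 2 did not pass, with a median of 0.29, and beyond 1 log2 unit 3 were higher in KHOS and 3 in U-2OS. EGFR, the receptor for epidermal growth factor, was at 10.71, 10.76 and 10.90 (KHOS) against 7.34, 8.14 and 7.94 (U-2OS), 7.92-fold higher in KHOS. PDGFRA, the platelet-derived growth factor receptor alpha of mesenchymal cells, was at 9.88, 9.14 and 9.13 (KHOS) against 4.96, 5.03 and 4.64 (U-2OS). MET, the receptor for hepatocyte growth factor, was high in both lines and differed by 1.12 ± 0.12. VEGFC, a growth factor for lymphatic vessels, was higher in KHOS by 3.86 ± 0.18, whereas the fibroblast growth factors FGF1 and FGF2 were higher in U-2OS. FGF1 was at 2.81, 2.63 and 2.50 (KHOS) against 8.41, 8.83 and 8.96 (U-2OS), and FGF2 at 4.80, 5.03 and 4.72 (KHOS) against 8.36, 8.74 and 8.52 (U-2OS).

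The insulin-like growth factor axis had the second largest median towards KHOS, at 4.83. Since 7 of its 16 genes passed the signal limit on KHOS arrays alone, and 1 on U-2OS arrays alone, this median and the counts are a description. Of 16 genes tested, 12 were higher in KHOS, 3 were higher in U-2OS and 1 did not pass, with 10 and 0 beyond 1 log2 unit. STC2, a secreted inhibitor of the protease that frees the growth factor from its binding proteins, was at 9.30, 10.14 and 10.38 (KHOS) against 2.20, 2.24 and 2.23 (U-2OS). IRS2, the adapter that couples the receptors to phosphoinositide signalling, was at 9.25, 10.10 and 10.37 (KHOS) against 2.38, 2.39 and 2.62 (U-2OS). IGFBP2, a binding protein that holds the growth factor in the medium, differed by 5.95 ± 0.12. IGF2BP3, a fetal RNA-binding protein named for a target mRNA, was at 13.66, 13.93 and 13.86 (KHOS) against 6.87, 8.42 and 8.07 (U-2OS), and its relative IGF2BP1 differed by 5.06 ± 0.10. The receptor IGF1R had a difference of 0.67 ± 0.16.

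Of 15 mesenchymal markers tested, 11 were higher in KHOS, 1 was higher in U-2OS and 3 did not pass, with a median of 1.34, and beyond 1 log2 unit 7 were higher in KHOS and 1 in U-2OS. The signal limit was passed on KHOS arrays alone by 6 of the 15 and on U-2OS arrays alone by 2, so these counts are a description. TWIST1, a transcription factor of the mesenchyme, was at 11.13, 10.98 and 10.94 (KHOS) against 3.61, 3.05 and 2.82 (U-2OS). CDH11, the cadherin of osteoblasts and other mesenchymal cells, was at 11.63, 11.18 and 11.74 (KHOS) against 4.90, 3.96 and 4.50 (U-2OS), and all 4 of its kept probe sets were higher in KHOS. CDH2, N-cadherin, differed by 1.19 ± 0.11. THY1, the surface glycoprotein CD90, was the called member that went the other way, at 2.99, 2.16 and 3.04 (KHOS) against 8.28, 7.82 and 7.96 (U-2OS). Epithelial markers leaned towards U-2OS: of 11 tested, 3 were higher in KHOS, 7 were higher in U-2OS and 1 did not pass, with a median of -1.77, and beyond 1 log2 unit 2 were higher in KHOS and 6 in U-2OS. KRT8, a keratin of simple epithelia, was at 7.31, 7.68 and 7.45 (KHOS) against 11.82, 11.35 and 11.63 (U-2OS), 17.4-fold higher in U-2OS, while its partner KRT18 was high in both lines and did not pass (difference 0.14 ± 0.11, adjusted p = 0.295). PKP2, a plaque protein of desmosomes, differed by -5.32 ± 0.14 and KRT80 by -3.15 ± 0.20. EPCAM, an adhesion molecule of epithelial cells, was higher in KHOS, at 8.92, 8.81 and 8.997 (KHOS) against 5.89, 5.15 and 5.71 (U-2OS). CDH1, the E-cadherin that defines epithelial cells, was near background in both lines, at up to 2.38 in KHOS and 2.43 in U-2OS.

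Matrix proteins and the proteases that act on them went in both directions. Of 22 collagens and matrix proteins tested, 12 were higher in KHOS, 9 were higher in U-2OS and 1 did not pass, with a median of 0.75, and beyond 1 log2 unit 6 were higher in KHOS and 4 in U-2OS. COL5A2, a chain of fibrillar collagen, was at 10.65, 10.38 and 9.54 (KHOS) against 5.61, 5.89 and 4.67 (U-2OS). COL12A1, a collagen that decorates fibrils, was at 4.33, 4.58 and 4.22 (KHOS) against 10.26, 10.04 and 10.02 (U-2OS), and FBN2, a fetal fibrillin, differed by -5.74 ± 0.17. TNC, the glycoprotein tenascin C, was 14.2-fold higher in U-2OS. Of 16 proteases and inhibitors tested, 6 were higher in KHOS, 6 were higher in U-2OS and 4 did not pass, with a median of -0.01, and beyond 1 log2 unit 3 were higher in KHOS and 4 in U-2OS. PLAU, the urokinase plasminogen activator, was at 13.55, 13.62 and 13.84 (KHOS) against 8.21, 8.67 and 8.92 (U-2OS), 33.7-fold higher in KHOS. MMP2, the gelatinase, was 16.7-fold higher in U-2OS, and MMP13, a collagenase, was higher in KHOS, at 5.47, 7.24 and 7.89 (KHOS) against 2.38, 2.83 and 1.97 (U-2OS). Of 14 integrins and adhesion receptors tested, 7 were higher in KHOS, 6 were higher in U-2OS and 1 did not pass, with a median of 0.22, and beyond 1 log2 unit 4 were higher in KHOS and 3 in U-2OS. ITGA1 and ITGA4, alpha chains of receptors for collagen and for fibronectin, were higher in KHOS by 5.05 ± 0.10 and 5.16 ± 0.52. MCAM, an adhesion molecule of melanoma and vessel cells, and ITGB5 were higher in U-2OS, with differences of -2.96 ± 0.22 and -1.79 ± 0.17. In the list of cartilage, fat and muscle markers, with 3 genes tested, 1 was higher in KHOS, 1 was higher in U-2OS and 1 did not pass. TAGLN, an actin-binding protein of smooth muscle, differed by -5.43 ± 0.09, and SOX9, the master factor of cartilage, was high in both lines with a difference of 0.61 ± 0.19 that did not pass without either siRNA pair (adjusted p = 0.148 and 0.142).

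Factors that lay down body pattern in the embryo often stay on in adult mesenchymal cells as a record of their site of origin. Of 13 patterning factors tested, 11 were higher in KHOS and 2 were higher in U-2OS, so that all passed, with a median of 2.20, and beyond 1 log2 unit 7 were higher in KHOS and 2 in U-2OS. The signal limit was passed on KHOS arrays alone by 4 of the 13 and on U-2OS arrays alone by 1, so these counts are a description. FOXC2, a forkhead factor of the paraxial mesoderm, was at 8.30, 8.27 and 8.04 (KHOS) against 2.76, 2.51 and 2.73 (U-2OS). PAX3, a factor of the neural crest and the muscle precursors, was at 7.18, 7.85 and 7.95 (KHOS) against 2.70, 2.74 and 3.04 (U-2OS), and FOXL2 differed by 4.72 ± 0.22. EMX2, a homeobox factor of the forebrain and urogenital tract, was higher in U-2OS, at 2.36, 2.32 and 2.33 (KHOS) against 7.22, 6.87 and 7.65 (U-2OS). Of 11 HOX genes tested, 6 were higher in KHOS, 4 were higher in U-2OS and 1 did not pass, with a median of 0.78, and beyond 1 log2 unit 2 were higher in KHOS and 3 in U-2OS. HOXD10, a factor of distal limb and posterior trunk, was at 2.77, 2.75 and 3.07 (KHOS) against 10.23, 9.59 and 9.77 (U-2OS), and its neighbour HOXD11 differed by -3.53 ± 0.28. Within the HOXB cluster, HOXB9 and HOXB6 went opposite ways, with differences of -3.22 ± 0.20 and 1.88 ± 0.22.

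A secreted inhibitor had the largest difference in both the Wnt and the BMP list, DKK1 in the former and GREM1 in the latter. Of 17 Wnt genes tested, 8 were higher in KHOS, 5 were higher in U-2OS and 4 did not pass, with a median of 0.24. Beyond 1 log2 unit 8 were higher in KHOS and 2 in U-2OS. These counts are a description, since 5 of the 17 passed the signal limit on KHOS arrays alone and 2 on U-2OS arrays alone. SFRP1, another secreted Wnt inhibitor, was at 12.11, 11.67 and 12.20 (KHOS) against 7.94, 7.42 and 7.97 (U-2OS), 18.6-fold higher in KHOS. The receptor FZD2 and the ligand WNT5B were higher in KHOS by 4.35 ± 0.16 and 4.14 ± 0.31. Of 30 TGF-beta and BMP genes tested, 13 were higher in KHOS, 10 were higher in U-2OS and 7 did not pass, with a median of 0.12, and beyond 1 log2 unit 3 were higher in KHOS and 6 in U-2OS, and the median turned to -0.03 when the arrays were centred. INHBB, a subunit of activin B, was higher in KHOS by 6.75 ± 0.13. ID4, a target of BMP signalling that blocks helix-loop-helix factors, was at 2.93, 3.36 and 2.76 (KHOS) against 9.17, 8.44 and 8.002 (U-2OS), and SMAD9, a transducer of BMP signals, differed by -4.02 ± 0.24. Of 9 Notch genes tested, 4 were higher in KHOS, 3 were higher in U-2OS and 2 did not pass, with a median of 0.51, and beyond 1 log2 unit 2 were higher in KHOS and none in U-2OS. The ligand DLL1 and the target HEY1 were higher in KHOS by 2.95 ± 0.18 and 3.005 ± 0.15, and the receptor NOTCH1 differed by -1.36 ± 0.14. Of 6 Eph receptors and ephrins tested, 4 were higher in KHOS, 1 was higher in U-2OS and 1 did not pass, with a median of 2.31, and beyond 1 log2 unit 4 were higher in KHOS and 1 in U-2OS. The signal limit was passed on KHOS arrays alone by 4 of the 6 and on U-2OS arrays alone by 1, so these counts are a description. EFNB2 and EPHA4, an ephrin ligand and a receptor of contact repulsion, were higher in KHOS by 6.42 ± 0.10 and 5.17 ± 0.31, and the ligand EFNA1 was higher in U-2OS, with a difference of -3.69 ± 0.24. In the Hippo pathway, which links cell contact to growth, 15 genes were tested: 7 were higher in KHOS, 4 were higher in U-2OS and 4 did not pass, and beyond 1 log2 unit 2 were higher in KHOS and 1 in U-2OS. The median was -0.23 over the mean differences and -0.04, 0.03 and 0.17 in the 3 pairs, and so had no stable sign. WWTR1, the coactivator TAZ, was 17.6-fold higher in KHOS, at 13.70, 13.48 and 13.74 (KHOS) against 9.84, 9.14 and 9.52 (U-2OS). ANKRD1, a common target of that coactivator, was higher in U-2OS, at 5.98, 6.17 and 6.04 (KHOS) against 13.32, 14.09 and 14.03 (U-2OS), and so was the target CCN2, with -1.19 ± 0.11.

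Regulators of the cell cycle differed by gene, while few genes of proliferation passed the test beyond a doubling. Of 26 proliferation genes tested, 8 were higher in KHOS, 6 were higher in U-2OS and 12 did not pass, 2 and 0 passed the test beyond 1 log2 unit, and the median was 0.14. MKI67, the marker Ki-67, was 4.04-fold higher in KHOS by its brightest probe set, and its 4 kept probe sets ran from -0.01 to 2.01. AURKB, a kinase of chromosome segregation, differed by 1.68 ± 0.13. Of the 18 genes of G1 control and tumour suppression tested, 8 were higher in KHOS, 8 were higher in U-2OS and 2 did not pass, with a median of -0.27, and beyond 1 log2 unit 4 were higher in KHOS and 3 in U-2OS. CCNE2, an E-type cyclin, was at 10.53, 10.32 and 9.94 (KHOS) against 6.68, 6.18 and 6.89 (U-2OS). CCND2, given above, differed in the opposite direction, which holds for these genes and not for other cyclins of either type. MYC, a transcription factor of growth, was at 8.78, 9.84 and 10.30 (KHOS) against 12.62, 12.72 and 12.61 (U-2OS), lower in KHOS throughout, with the widest gap in untransfected cells. RB1, the retinoblastoma tumour suppressor, was higher in KHOS by 1.44 ± 0.11. CDKN2A and CDKN2B, the neighbouring genes of the INK4 inhibitors, were near background in both lines, and CDKN2A peaked at 3.14 in KHOS and 3.11 in U-2OS. MTAP, a metabolic gene that lies next to CDKN2A, was at 3.10, 3.01 and 3.02 (KHOS) against 8.79, 8.30 and 8.61 (U-2OS), and its 3 kept probe sets all differed by -5.53 to -4.67.

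Targets of p53, the factor that halts the cycle or starts cell death after damage, leaned towards U-2OS. Of 21 tested, 4 were higher in KHOS, 12 were higher in U-2OS and 5 did not pass, with 2 and 5 beyond 1 log2 unit and a median of -0.95. CDKN1A, the inhibitor p21, was at 9.11, 9.73 and 10.07 (KHOS) against 10.56, 10.81 and 10.64 (U-2OS), 2.05-fold higher in U-2OS. FAS, a death receptor, and TIGAR, a regulator of glycolysis, were higher in U-2OS, with differences of -2.89 ± 0.24 and -2.38 ± 0.11. MDM2, the ligase that degrades p53, differed by -0.30 ± 0.09, its fainter kept probe set went the other way, and it did not pass once any transfection was left out (adjusted p = 0.0846, 0.149 and 0.105). TP53INP1 and PERP were higher in KHOS by 3.64 ± 0.49 and 3.25 ± 0.14 against the balance of the list. Of 20 apoptosis regulators tested, 9 were higher in KHOS, 6 were higher in U-2OS and 5 did not pass, with a median of 0.00, and beyond 1 log2 unit 4 were higher in KHOS and 2 in U-2OS. TNFRSF10A, a death receptor for the ligand TRAIL, was at 10.24, 9.98 and 10.15 (KHOS) against 4.75, 3.14 and 3.07 (U-2OS), and TNFRSF10D, a decoy receptor for the same ligand, differed by 6.34 ± 0.20. HRK, a BH3-only protein that promotes cell death, was higher in U-2OS, with a difference of -5.76 ± 0.13.

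Telomere genes held a case in which probe sets of the same gene disagreed. ATRX, a chromatin remodeller whose loss goes with telomerase-free telomere lengthening, had 3 kept probe sets. The brightest of them was at 9.72, 9.81 and 9.44 (KHOS) against 11.00, 10.86 and 10.07 (U-2OS), and the second differed by -0.64, both higher in U-2OS. The third was at 9.78, 9.53 and 9.32 (KHOS) against 3.07, 3.70 and 3.32 (U-2OS). Through that probe set, U-2OS was near background on all 3 arrays, and the direction of ATRX therefore depends on the probe set. Averaged over the 3 probe sets, the difference was 1.52 in favour of KHOS. DAXX, its partner in histone deposition, was lower in KHOS, with -0.38 ± 0.09, but did not pass once any transfection was left out (adjusted p = 0.0524, 0.0692 and 0.0622). TERT, the catalytic subunit of telomerase, was near background in both lines, at up to 3.97 in KHOS and 3.94 in U-2OS. Of 18 telomere genes tested, 11 were higher in KHOS, 2 were higher in U-2OS and 5 did not pass, with a median of 0.40, and beyond 1 log2 unit 3 were higher in KHOS and none in U-2OS. PML and SP100, proteins of nuclear bodies that are also interferon targets, were higher in KHOS by 1.66 ± 0.15 and 1.53 ± 0.12. NBN, a DNA break sensor, was higher in KHOS by 1.46 ± 0.09 by its brightest probe set, and its 4 kept probe sets ran from 0.30 to 1.46.

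Imprinted genes, which are expressed from the maternal or the paternal copy alone, showed large differences both ways. Of 11 tested, 6 were higher in KHOS, 3 were higher in U-2OS and 2 did not pass, with a median of 0.46, and beyond 1 log2 unit 4 were higher in KHOS and 3 in U-2OS. PEG10, a paternally expressed growth gene, was at 11.10, 10.39 and 10.69 (KHOS) against 2.33, 4.19 and 2.35 (U-2OS), and MEST, also expressed from the paternal copy, differed by 7.13 ± 0.25. PLAGL1, a zinc finger growth suppressor, was at 2.65, 2.60 and 2.50 (KHOS) against 10.94, 11.07 and 10.83 (U-2OS), and NDN, the neuronal protein necdin, differed by -6.66 ± 0.27. Both were near background on every KHOS array. Of 7 oncofetal genes tested, 3 were higher in KHOS, 2 were higher in U-2OS and 2 did not pass, with a median of 0.06, and beyond 1 log2 unit 2 were higher in KHOS and none in U-2OS. HMGA2 and LIN28B were measured at high levels in both lines, with differences of 0.81 ± 0.10 and -0.60 ± 0.19, and neither passed with no transfection block (adjusted p = 0.0613 and 0.226). LIN28B also did not pass without the untransfected pair (difference -0.36, adjusted p = 0.0929) or without the pair with nonspecific siRNA (adjusted p = 0.113).

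Metabolic genes were examined in 3 lists. Of 16 genes of oxidant and drug metabolism tested, 9 were higher in KHOS, 3 were higher in U-2OS and 4 did not pass. The median was 1.48, and beyond 1 log2 unit 7 were higher in KHOS and 2 in U-2OS. On KHOS arrays alone 5 of the 16 passed the signal limit, and on U-2OS arrays alone 2, so these counts and the median are a description. Beside CYP1B1, GSTM3, a glutathione transferase, and AKR1C3, a reductase of steroids and prostaglandins, were higher in KHOS by 5.69 ± 0.30 and 4.74 ± 0.43. ABCB1, the drug efflux pump P-glycoprotein, was higher in U-2OS, at 2.71, 2.47 and 2.33 (KHOS) against 8.62, 9.14 and 9.43 (U-2OS), with every KHOS array near background. AHR, the ligand-activated factor known to induce CYP1B1, was added after its values were seen, and was at 9.33, 8.76 and 9.70 (KHOS) against 3.31, 2.95 and 2.94 (U-2OS). Of 25 genes of hypoxia and glycolysis tested, 5 were higher in KHOS, 13 were higher in U-2OS and 7 did not pass, with a median of -0.40, and beyond 1 log2 unit 3 were higher in KHOS and 4 in U-2OS. CA12, a carbonic anhydrase, and ENO2, the neuronal enolase, were higher in U-2OS, with differences of -5.05 ± 0.35 and -4.23 ± 0.15, and ADM, the peptide adrenomedullin, was higher in KHOS by 2.73 ± 0.21. Of 13 genes of cholesterol and fatty acid synthesis tested, 4 were higher in KHOS, 5 were higher in U-2OS and 4 did not pass, with a median of -0.24, and beyond 1 log2 unit 1 was higher in KHOS and 1 in U-2OS. IDI1, an isomerase of the isoprenoid pathway, was 7.02-fold higher in KHOS, and HMGCS1, an earlier step, was 2.95-fold higher in U-2OS.

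Inflammatory mediators, calcium-binding proteins and nuclear receptors went in both directions. Of 14 cytokines and chemokines tested, 6 were higher in KHOS, 6 were higher in U-2OS and 2 did not pass, with a median of -0.01. Beyond 1 log2 unit 4 were higher in KHOS and 5 in U-2OS. These counts are a description, since 2 of the 14 passed the signal limit on KHOS arrays alone and 5 on U-2OS arrays alone. IL32 and TSLP, both cytokines, were higher in U-2OS, with differences of -5.70 ± 0.12 and -3.54 ± 0.11, and IL1A was at 2.59, 2.59 and 2.61 (KHOS) against 4.91, 7.04 and 8.02 (U-2OS). The untransfected U-2OS array was the lowest of the U-2OS arrays for IL1A. Of 15 S100 proteins and annexins tested, 4 were higher in KHOS, 4 were higher in U-2OS and 7 did not pass, with a median of -0.18, and beyond 1 log2 unit 2 were higher in KHOS and 3 in U-2OS. ANXA3 was at 2.31, 2.27 and 2.28 (KHOS) against 10.23, 10.07 and 10.29 (U-2OS), S100A2 was 16.02-fold higher in U-2OS, and S100A6, one of the brightest genes of KHOS, was 11.1-fold higher in KHOS. Of 9 nuclear receptors tested, 4 were higher in KHOS, 3 were higher in U-2OS and 2 did not pass, with a median of -0.03, and beyond 1 log2 unit 1 was higher in KHOS and 2 in U-2OS. NR2F1, an orphan receptor of the neural crest, was higher in KHOS by 4.72 ± 0.23, NR3C1, the glucocorticoid receptor, by 1.46 ± 0.16, and VDR, the vitamin D receptor, was higher in U-2OS, with -2.002 ± 0.12.

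Housekeeping genes served as a check on scale. Of 12 tested, 4 were higher in KHOS, 4 were higher in U-2OS and 4 did not pass. None passed the test beyond 1 log2 unit, and the median was -0.05, with a range of -1.06 to 1.08. SDHA and IPO8 were the farthest apart, at 1.08 ± 0.12 and -1.06 ± 0.10. On the plot of list medians, 3 lists stood beyond 4 log2 units in either direction: the interferon-stimulated genes, the IGF axis and the cancer-testis antigens. The lists of proliferation, housekeeping, apoptosis, oncofetal genes, TGF-beta and BMP, cytokines, matrix proteases and nuclear receptors had medians within 0.15 of 0, the size of the shift between the lines. Such medians carry no direction, since they depended on the setting: with every kept probe set as a feature, that of the matrix proteases was 1.07 and that of the nuclear receptors 0.71. A median near 0 does not mean that the members were alike, as the matrix proteases and cytokines show.

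**Figure D4:**
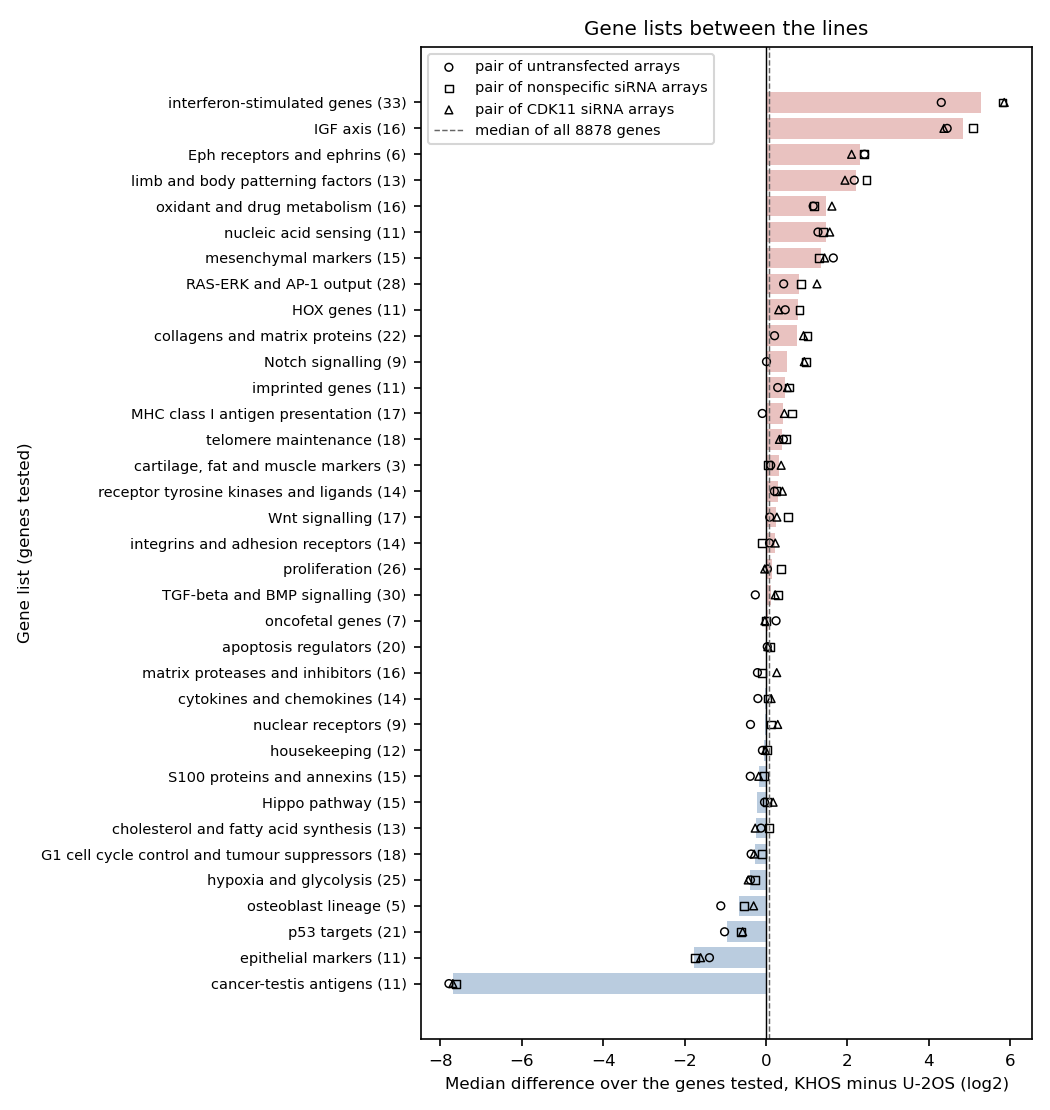
Median difference in log2 signal, KHOS minus U-2OS, over the tested genes of each list with at least 3 of them (bars), with the median in each of the 3 pairs of arrays (open symbols) and that of all genes (dashed line). Interferon-stimulated genes reached 5.29 and cancer-testis antigens -7.70, and the symbols of a list lie close to each other beside the spread between lists.

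CDK11, the target of the siRNA, had higher values in KHOS in each pair by its brightest probe set. Its probe sets are assigned to both CDK11A and CDK11B, which are near-identical copies, and stayed outside the test. The brightest was at 9.69, 9.92 and 7.64 (KHOS) against 8.97, 8.88 and 6.24 (U-2OS), and the lowest array of each line was the one with CDK11 siRNA. The difference between the lines was 0.72, 1.04 and 1.40 in the 3 pairs. Of its 5 probe sets, the third was lower in KHOS in the CDK11 siRNA pair, by a difference of -0.89, and the fifth differed there by 0.05. CCNL1 and CCNL2, the L-type cyclins that bind CDK11, were higher in KHOS by 1.29 ± 0.12 and 0.95 ± 0.09.

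The differences were finally laid out in chromosome order, with neighbours taken from the RefSeq table of GRCh38.p14 for 8864 genes. Chromosome 22 had the lowest median, -0.73 over 186 genes, with 65.6% of its genes called higher in U-2OS against 33.3% of all genes. Chromosome 13 had the highest, 0.70 over 176 genes, with 67.0% called higher in KHOS against 38.3%. Chromosomes 18, 20, 19 and 6 followed, at 0.50, 0.40, 0.35 and 0.31. The medians of the 3 pairs were alike, for instance -0.73, -0.74 and -0.76 on chromosome 22.

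Within chromosomes, windows of 25 neighbouring genes with a median beyond 0.75 were joined into 56 runs, 36 towards KHOS and 20 towards U-2OS. Their sizes came to 34.0% of the genes, with genes that lay in runs of both directions, such as TAGLN, counted in each. Because the runs were chosen on the same differences, they are described without a test. The longest lay on chromosome 17, where 204 genes from SP2 to CYBC1 had a median of -0.84 and 84.3% were lower in KHOS. On the same chromosome, 118 genes from MGC70870 to TOP3A had a median of 0.95, with AURKB and the polymerase subunit POLR2A among them, and 90.7% were higher in KHOS. On chromosome 12, 142 genes from KDM5A to SLC38A1 had a median of -1.04. CCND2, TIGAR, ENO2 and SLC2A3 were among them, while WNT5B in the same run was higher in KHOS. On chromosome 8, 67 genes from EIF3H to PLEC, MYC included, had a median of -0.86. On chromosome 13, the 116 genes from ALG5 to CUL4A had a median of 0.83, with RB1, EFNB2 and IRS2 among them. Chromosome 14 held 85 genes from ALKBH1 to TEDC1 with a median of 1.05, and chromosome 5 held 88 from KGD4 to TSLP with 0.97, ERAP1 and NR2F1 included. Single genes could oppose their run: on the X chromosome, MAGEA4, MAGEA6 and MAGEA12 lay within 92 genes from TCEAL8 to PNMA6A whose median was 0.93, and MTAP lay within a run on chromosome 9 with a median of 0.88. Each of the 56 runs kept the sign of its median in all 3 pairs, which the choice of runs on the mean of these pairs made likely.

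**Figure D5:**
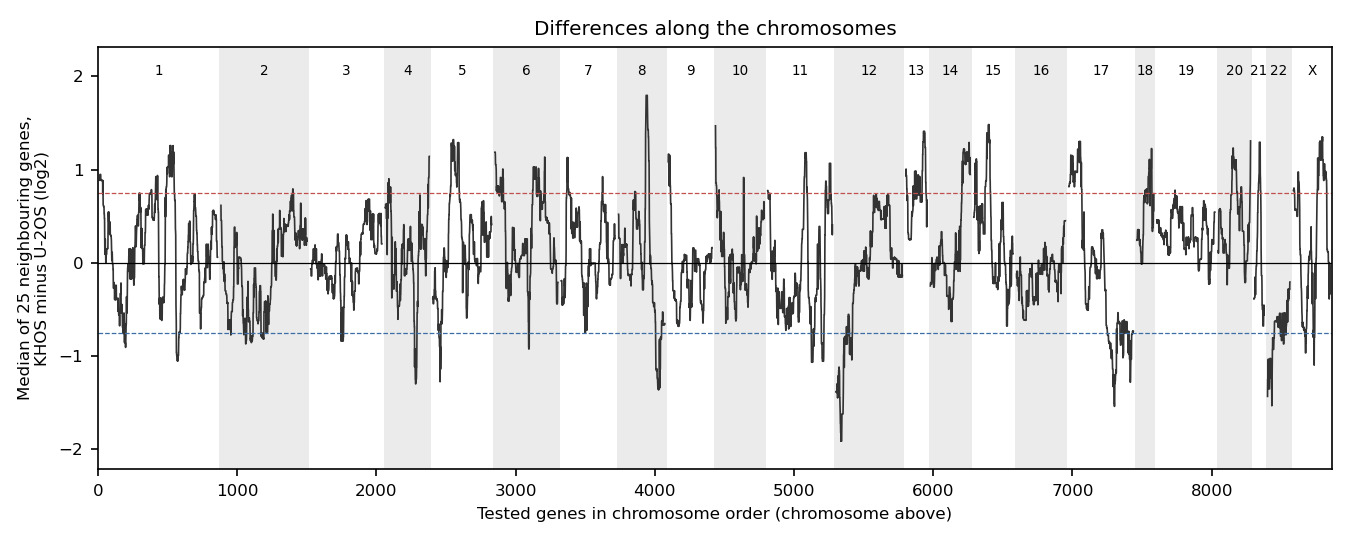
Median difference of 25 neighbouring genes in log2 signal, KHOS minus U-2OS (vertical), along the tested genes in chromosome order (horizontal, chromosomes shaded in turn), with dashed lines at 0.75 and -0.75. The longest stretches below the lower line lie at the start of chromosome 12 and in the latter part of chromosome 17, and chromosome 22 stays below 0.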

How the data were processed

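Gene expression was measured on Affymetrix U133 Plus 2.0 arrays, 1 for each line and transfection. The authors normalised the arrays with gcrma and deposited log2 values for 54675 probe sets, which were used as given. All 6 columns were used. GEO's platform annotation named 1 gene for 41097 probe sets, several for 1801 and none for 11777. Probe sets with 1 gene and a value above a signal of 100 (6.64 on the log2 scale) on at least 1 array were kept, and the brightest stood for its gene. Line was tested in limma 3.58.1 (R 4.3.3) with transfection as a block, 2 residual and 2.74 prior degrees of freedom, two-sided, with Benjamini-Hochberg adjustment over 8878 genes at 0.05. The same fit tested differences beyond 1 log2 unit (treat). The pairing comes from the transfection in the labels. The test was checked on simulated data drawn from its own model. That check covers the fit and not the spread between cultures, which was not measured.

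The members and the 38 gene lists, with 963 genes, were chosen with earlier results of these data known. Of the 963 genes, 535 were tested. A further 96 had no probe set named for that gene alone and were not analysed here. The rest stayed below the signal limit on every array and entered no count of tested genes and no median. The text names the 15 largest differences each way, up to 4 called members of each list, a set of marker genes and the ends and some members of runs of neighbours. BST2, ISG15, HERC5, TGFA, JUN, FOS, JUNB, IGF1R, AHR, PRAME and the genes without a list were added after their values were seen, as were the window of 25 genes and its bound. The S100 list was widened to every numbered S100A gene after its values were seen. Alternatives were a variance prior that follows the level, no transfection block, other filters, centring, other uses of several probe sets, and leaving out each transfection in turn.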

Additional observations from a re-analysis of the deposited data

How the results depend on the processing

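The 6362 called genes became 6673 when the variance prior followed the mean level, 5923 with no transfection block (the replicate block of this design), 6445 with the mean of a gene's probe sets, 5417 of 7636 genes with a filter on the mean level and 6690 of 19775 with no filter. With every kept probe set as a feature, 11829 were called, 6486 higher in KHOS and 5343 higher in U-2OS, because more features were tested. Beyond 1 log2 unit, the counts were 2076, 1157 and 919. Leaving out a transfection gave 5244 to 6022 calls, 2811 to 3273 higher in KHOS and 2433 to 2749 higher in U-2OS, with 1 residual degree of freedom. Centring the arrays took away a shift of 0.15 and left 6411 calls, with 2960 higher in KHOS and 3451 higher in U-2OS, so that which line had more calls turned with the centring. Of 169 named genes, ATRX alone turned direction, to 1.52 with the mean of its probe sets, and the cause was not tested. Between 4 and 8 of the 169 no longer passed when a transfection was left out, 2 with no block, 9 with no filter and 1 with centring. The 9 were COL1A1, SPARC, SOX9, ERAP2, HLA-C, HES1, LIN28B, BCL2A1 and KRT10. With centring, the medians of the lists of proliferation, oncofetal genes, apoptosis and TGF-beta and BMP turned to -0.02, -0.10, -0.15 and -0.03. With every kept probe set, those of matrix proteases and nuclear receptors turned to 1.07 and 0.71, that of cytokines to 0.33 and that of imprinted genes to -0.02. With a filter on the mean level, that of integrins turned from 0.22 to -0.53 and that of the osteoblast lineage from -0.65 to 0.04. With no filter, the median of the Eph genes fell from 2.31 to -0.02. The number of arrays limits the precision, and levels near background carry no order.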

Other observations

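Several transcription factors of embryonic patterning and of cell identity that were on no list were on in KHOS only, at a level of at least 8 on its 3 arrays with U-2OS near background. They were picked after their values were seen and are given as values without a test. ZIC2, a zinc finger factor of the early nervous system, was at 10.03, 10.23 and 10.23 (KHOS) against 2.79, 2.77 and 2.73 (U-2OS), and its relative ZIC1 differed by 7.09 ± 0.10. DLX1, a homeobox factor of the forebrain and the jaw, was at 8.62, 8.70 and 8.22 (KHOS) against 2.68, 2.48 and 2.59 (U-2OS), and its neighbour DLX2 differed by 5.98 ± 0.23. IRX2, LHX1 and HHEX, further homeobox factors, differed by 7.17 ± 0.10, 5.15 ± 0.10 and 7.02 ± 0.16. KLF4, a factor of epithelial differentiation and pluripotency, was at 10.34, 11.18 and 11.84 (KHOS) against 2.63, 2.50 and 2.42 (U-2OS), and TFAP2C, a factor of the neural crest and the germ line, differed by 8.06 ± 0.19.

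Transcription factors were also on in U-2OS only, among them HOXD10, PLAGL1 and ID4 given above. BCL11A, a further one, was at 2.03, 2.01 and 2.02 (KHOS) against 8.71, 8.57 and 8.33 (U-2OS). It and the following genes on in U-2OS only were again picked after their values were seen. CYP24A1 and CYP26B1, enzymes that break down vitamin D and retinoic acid, differed by -6.16 ± 0.12 and -5.88 ± 0.15, and CYP24A1 was at 3.45, 2.84 and 2.73 (KHOS) against 9.42, 9.25 and 8.83 (U-2OS). BEX4 and BEX5, relatives of BEX1 on the X chromosome, differed by -7.40 ± 0.19 and -4.82 ± 0.15. EZHIP, an inhibitor of the Polycomb repressive complex that is normally confined to the germ line, was at 2.20, 1.99 and 1.995 (KHOS) against 10.45, 10.34 and 10.23 (U-2OS). SERPINA1, the protease inhibitor alpha-1-antitrypsin, differed by -5.87 ± 0.38.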
